A study of Mus musculus with 15 samples.

Results

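The receptors for interleukin 5 (IL-5) and its relatives were described in mouse eosinophils grown from bone marrow. The 8 genes were taken by name from 25101 in the count tables: Il5ra, Csf2ra and Il3ra for the ligand-binding alpha chains, Csf2rb and Csf2rb2 for the beta chains, and Csf3r, Kit and Flt3 for other growth factor receptors of the marrow. All 8 were found in the tables. The RNA group held 2 libraries from BALB/c mice. Unselected marrow cells were first expanded (days 0 to 3) with 100 ng/mL of stem cell factor plus 100 ng/mL of FLT3 ligand. They were then kept (days 4 to 14) in 10 ng/mL of murine IL-5 and collected at day 14. Both libraries shared this IL-5 culture, and no culture without IL-5, no other time point and no sorted cells entered the RNA group, so the levels are those of one IL-5 culture condition. The labels do not say that the libraries came from separate cultures or animals.

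IL-5, IL-3 and GM-CSF (granulocyte-macrophage colony-stimulating factor) each bind an alpha chain of their own, which then joins a beta chain that carries the signal into the cell through the kinase JAK2 and the factor STAT5. The mouse has a pair of beta chain genes: Csf2rb encodes the chain shared by all of these cytokines, and Csf2rb2 encodes a close copy that serves IL-3. IL-5 is the main growth and survival factor of eosinophils. Csf3r is the receptor for granulocyte colony-stimulating factor and drives neutrophil production, while Kit and Flt3 are receptor kinases for stem cell factor and FLT3 ligand on early progenitors, and Kit also marks mast cells.

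The libraries held 40306679 and 30465490 counts, and levels are given as CPM, the count of a gene over the total of its library, times 1e6. Intervals are exact 95% Poisson or binomial intervals and cover counting error only. Because 2 libraries of 1 group were sequenced, no test between conditions existed, and a paired permutation over 2 libraries cannot go below p = 0.5, so no p-value is given. The eosinophil label rested on the levels of its 8 markers, which summed to 13164 and 13411 CPM. Prg2 (major basic protein) stood at 3910 and 4195 CPM and Siglecf, an eosinophil surface lectin, at 519 and 560.3 CPM. All 8 reached 1 CPM in both libraries, against 47.5% of all genes. All 10 neutrophil and all 8 macrophage and monocyte markers did too, so this count does not single out eosinophils. Markers of other cells were present as well, and bulk sums do not tell whether other cells or the eosinophils made these RNAs. The 8 macrophage and monocyte markers summed to 4991 and 5892 CPM, the 10 neutrophil markers to 1709 and 1470 CPM, and the 8 stromal and endothelial markers to 2655 and 774 CPM in replicates 1 and 2. The libraries stood apart in Xist, the RNA of the silenced X chromosome, at 989.9 and 0.656 CPM. Such values do not come from 1 shared pool of cells. Any effect of donor sex cannot be told apart from other differences between the libraries, so every value below is given for each library. In such bulk samples, fewer cells of a type and less RNA per cell cannot be told apart.

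All 8 receptor genes were detected, meaning at least 1 CPM in both libraries, against 47.5% of all genes in the tables. The beta chain genes took most of the receptor counts. Csf2rb had 2858 CPM in replicate 1 (interval 2841 to 2874) and 3723 CPM in replicate 2 (3702 to 3745). Csf2rb2 had 1513 CPM in replicate 1 (1501 to 1525) and 1993 CPM in replicate 2 (1978 to 2009). Both genes were higher in replicate 2, and neither pair of intervals overlapped. Over both libraries Csf2rb averaged 3291 ± 612 CPM and Csf2rb2 averaged 1753 ± 340 CPM (SD, n = 2). Together the pair held 4370 and 5717 CPM.

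The balance within the pair was nearly the same in both libraries, although each gene differed between them. The count ratio of Csf2rb to Csf2rb2 was 1.89 (1.87 to 1.91) in replicate 1 and 1.87 (1.85 to 1.89) in replicate 2, and these intervals overlapped. Csf2rb therefore took 65.4% and 65.1% of the counts of the pair. In the RefSeq gene order of GRCm38.p6 the genes are neighbours on chromosome 15, with 0 protein-coding genes between them. The sources used here do not say how reads that match both copies were counted. The split between them is therefore uncertain, and their sum is the firmer value.

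**Figure D1:**
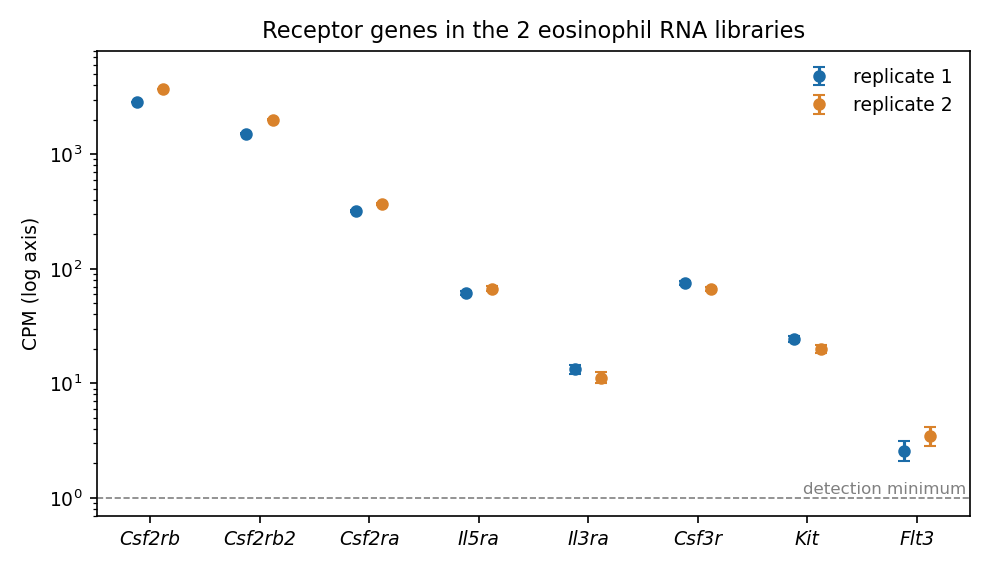
Levels of the 8 receptor genes in the RNA libraries of cultured eosinophils, as CPM on a log axis; points are single libraries, bars are exact 95% Poisson intervals and the dashed line is the detection minimum of 1 CPM. The beta chain genes stand at the top, between 1513 and 3723 CPM, and Flt3 lies lowest at 2.58 and 3.45 CPM.

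The alpha chain of the GM-CSF receptor held most of the alpha chain counts. Csf2ra had 12845 counts in replicate 1, or 319 CPM (313 to 324), and 11158 counts in replicate 2, or 366 CPM (359 to 373). Il5ra, the alpha chain that binds the IL-5 in the medium, had 2477 counts in replicate 1, or 61.5 CPM (59.1 to 63.9), and 2046 counts in replicate 2, or 67.2 CPM (64.3 to 70.1). Both were higher in replicate 2 with intervals that did not overlap. Il3ra, the alpha chain for IL-3, had 533 and 341 counts, or 13.2 CPM (12.1 to 14.4) in replicate 1 and 11.2 CPM (10.04 to 12.4) in replicate 2, so it was lower in replicate 2 and its intervals overlapped. The means were 342 ± 33.6 CPM for Csf2ra, 64.3 ± 4.03 CPM for Il5ra and 12.2 ± 1.44 CPM for Il3ra (SD, n = 2). Of the counts of the 3 alpha chains, Csf2ra took 81.0% and 82.4%, Il5ra 15.6% and 15.1%, and Il3ra 3.36% and 2.52%. The tables count whole genes, so the membrane form of the IL-5 receptor alpha chain is not told apart from its soluble forms.

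The 250 bases before the annotated start are shown for Il5ra and Csf2ra, the IL-5 and GM-CSF alpha chains, and for Csf2rb2, the beta chain that serves IL-3. No sequence was held for Csf2rb, so the shared beta chain is named only. The sequences are RefSeq's for GRCm38.p6, 5′ to 3′ on the strand of the gene: chr6:106749038-106749287 on the minus strand for Il5ra, chr19:61228419-61228668 on the minus strand for Csf2ra and chr15:78305722-78305971 on the minus strand for Csf2rb2. Capitals mark GATA, the core letters read by GATA factors, and GGAA, the core letters read by ETS factors such as PU.1, and their reverse complements TATC and TTCC.
Il5ra: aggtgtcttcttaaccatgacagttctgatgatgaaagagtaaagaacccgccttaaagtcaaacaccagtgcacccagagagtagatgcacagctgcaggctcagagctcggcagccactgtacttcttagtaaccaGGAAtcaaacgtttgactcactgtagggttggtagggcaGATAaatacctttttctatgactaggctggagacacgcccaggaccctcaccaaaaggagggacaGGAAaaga
Csf2ra: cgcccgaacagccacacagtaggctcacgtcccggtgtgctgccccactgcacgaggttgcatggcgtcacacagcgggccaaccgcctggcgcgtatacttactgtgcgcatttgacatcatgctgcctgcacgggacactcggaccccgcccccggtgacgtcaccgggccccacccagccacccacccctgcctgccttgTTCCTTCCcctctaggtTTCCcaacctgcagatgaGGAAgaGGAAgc
Csf2rb2: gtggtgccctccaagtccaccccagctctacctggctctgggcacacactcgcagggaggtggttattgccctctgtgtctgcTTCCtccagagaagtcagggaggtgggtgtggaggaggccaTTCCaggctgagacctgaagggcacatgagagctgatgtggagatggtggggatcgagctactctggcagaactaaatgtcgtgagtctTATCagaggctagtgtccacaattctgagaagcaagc
Il5ra held 1 GATA, 73 bases before the start, and 2 GGAA, 112 and 8 bases before it. Csf2rb2 held 1 TATC, 37 bases before the start, and 2 TTCC. Csf2ra held no GATA on either strand, 2 GGAA and 3 TTCC, and its window was richer in G and C, at 64.8% against 48.0% for Il5ra and 56.4% for Csf2rb2. Such short words are common: among 32851 promoter windows of the same length 53.6% held GATA and 93.4% held GGAA on either strand. Sequences were held for 7 of the 8 genes. The mRNAs of factors that read these words were present, with Spi1 (PU.1) at 411 and 436 CPM and Gata1 at 150.2 and 156 CPM. Cebpe, a C/EBP factor of granulocytes and not one of the factors named for these words, stood at 461 and 511 CPM. No binding or chromatin value at these windows enters here, and the words are a description of the letters.

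Set against the beta chains, every alpha chain had a lower count ratio in replicate 2. Csf2rb and Csf2rb2 were 1.30-fold and 1.32-fold higher there, above 98.4% and 98.6% of the detected genes. A lower ratio to the beta chains in replicate 2 was therefore shared by most detected genes. These ratios divide counts, not counts per transcript length, so they are compared between libraries and are not ratios of molecules. Il5ra over Csf2rb and Csf2rb2 together was 0.0141 (0.0135 to 0.0146) in replicate 1 and 0.0117 (0.0112 to 0.0123) in replicate 2, which is 71.1 and 85.1 beta chain counts per Il5ra count. Csf2ra over the beta chains was 0.0729 (0.0716 to 0.0742) and 0.0641 (0.0628 to 0.0653). Il3ra over the beta chains was 0.00303 (0.00277 to 0.00329) and 0.00196 (0.00176 to 0.00218). None of these 3 pairs of intervals overlapped. The libraries differed 1.20-fold for Il5ra, 1.14-fold for Csf2ra and 1.55-fold for Il3ra.

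Together the 3 alpha chains stood at 0.0900 (0.0886 to 0.0915) of the beta chain counts in replicate 1 and at 0.0778 (0.0764 to 0.0791) in replicate 2, or 8.26% and 7.22% of all alpha and beta chain counts. Between the alpha chains, Csf2ra over Il5ra was 5.19 (4.97 to 5.42) and 5.45 (5.20 to 5.72), with overlapping intervals, and Il5ra over Il3ra was 4.65 (4.23 to 5.11) and 6.00 (5.35 to 6.75), with intervals apart. Csf1r, the receptor for macrophage colony-stimulating factor, had a count ratio to the beta chains of 0.216 and 0.184.

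**Figure D2:**
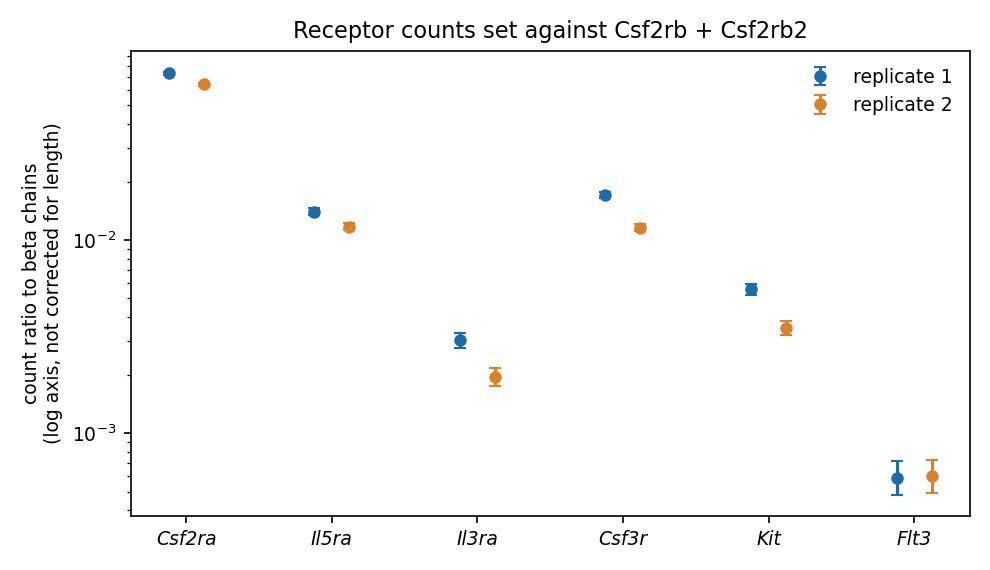
Counts of each alpha chain and of Csf3r, Kit and Flt3 divided by the summed counts of Csf2rb and Csf2rb2, on a log axis, for each RNA library; bars are exact 95% binomial intervals and lengths are not corrected. Every gene but Flt3 is lower in replicate 2, and Flt3 is near level at 0.00059 and 0.000603.

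The receptors of the neutrophil, mast cell and progenitor lines were present as well. Csf3r had 3026 counts in replicate 1, or 75.1 CPM (72.4 to 77.8), and 2018 counts in replicate 2, or 66.2 CPM (63.4 to 69.2). It averaged 70.7 ± 6.25 CPM (SD, n = 2) and was lower in replicate 2, with intervals apart. By counts Csf3r stood beside Il5ra: Csf3r over Il5ra was 1.22 (1.16 to 1.29) in replicate 1 and 0.986 (0.927 to 1.05) in replicate 2. The interval in replicate 2 spans equal counts, so the order there was not settled. All 10 neutrophil markers were detected, against 47.5% of all genes. Of them 7 were higher in replicate 1, a share near the 65.9% of all detected genes that were higher there. The other 3 were higher in replicate 2, with Elane 2.01-fold apart at 3.52 and 7.09 CPM. Highest in mean CPM were the granule gene Ngp at 658 and 482 CPM, the surface gene Ly6g at 388 and 381 CPM, S100a9 at 241 and 203 CPM and the granule protein gene Ltf at 142 and 126 CPM. The part of neutrophils in the Csf3r level was not tested.

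Kit had 980 counts in replicate 1, or 24.3 CPM (22.8 to 25.9), and 610 counts in replicate 2, or 20.02 CPM (18.5 to 21.7). Kit averaged 22.2 ± 3.03 CPM (SD, n = 2) and was lower in replicate 2, with intervals apart. The 8 mast cell and basophil markers summed to 55.9 and 28.1 CPM, and 2 of them were detected, against 47.5% of all genes. Cpa3, a mast cell protease, stood at 28.2 and 12.9 CPM. Ms4a2, the beta chain of the IgE receptor, stood at 24.4 and 13.4 CPM. The mast cell protease Mcpt4 was at 0 in replicates 1 and 2, for which 3 counts come to 0.0744 and 0.0985 CPM, and Cma1 had 6 and 4 counts. The 8 stem and progenitor markers summed to 105 and 79.3 CPM, led by Myb at 56.6 and 40.4 CPM and Cd34 at 22.5 and 23.8 CPM, while Mecom had 0 counts. The part of these cells in the Kit level was not tested.

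Flt3 was the lowest of the receptor genes, with 104 counts or 2.58 CPM (2.11 to 3.13) in replicate 1 and 105 counts or 3.45 CPM (2.82 to 4.17) in replicate 2. Its mean was 3.01 ± 0.613 CPM (SD, n = 2). The intervals overlapped, and it was the receptor gene that fell under a minimum of 5 CPM. Dendritic cells are a line that depends on Flt3. Of 8 dendritic cell markers 6 were detected, against 47.5% of all genes. Highest were Cd74 at 224 and 365 CPM, H2-Aa at 110.5 and 193 CPM and H2-Ab1 at 107 and 162 CPM. Macrophages also express these antigen presentation genes. Clec9a and Siglech lay little above the minimum of 1 CPM in both libraries. The factor gene Zbtb46 stood at 0.943 and 0.853 CPM and the receptor gene Xcr1 at 0.695 and 0.689 CPM, both under that minimum. At a minimum of 5 CPM, 4 of the 8 markers passed, against 39.7% of all genes. Kit over Flt3 was 9.42 (7.69 to 11.6) in replicate 1 and 5.81 (4.72 to 7.22) in replicate 2, with intervals apart.

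By counts, without correction for transcript length, the receptor genes ran in the order Csf2rb, Csf2rb2, Csf2ra, Csf3r, Il5ra, Kit, Il3ra and Flt3. Neighbours in this order kept their places in each library except Csf3r and Il5ra, whose order in replicate 2 was within counting error. Csf2rb ranked 7 of all genes by mean CPM and Flt3 ranked 10901.

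Between the libraries the receptor genes differed by 1.09-fold to 1.34-fold, and 0 of 8 lay over 2-fold apart, against 3.45% of the 11927 detected genes. The median detected gene stood at 0.959 in replicate 2 over replicate 1. On this scale Csf2rb was at 1.30 (1.29 to 1.31) and Csf2rb2 at 1.32 (1.30 to 1.33), above 98.4% and 98.6% of the detected genes. Csf2ra at 1.15 (1.12 to 1.18) was above 94.8% and Il5ra at 1.09 (1.03 to 1.16) above 90.04% of them. With Flt3, these alpha and beta chain genes made 5 of the 8 receptor genes higher in replicate 2, against 34.1% of the detected genes. Flt3 at 1.34 (1.01 to 1.77) had few counts and a wide interval. Il3ra at 0.846 (0.737 to 0.971), Csf3r at 0.882 (0.834 to 0.934) and Kit at 0.824 (0.743 to 0.912) were lower in replicate 2. With TMM scaling, which sets the bulk of genes level at 1.00, these values were 1.36 for Csf2rb, 1.38 for Csf2rb2, 1.20 for Csf2ra, 1.14 for Il5ra, 0.884 for Il3ra, 0.922 for Csf3r, 0.861 for Kit and 1.40 for Flt3, so each kept its direction.

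Marker lists moved with the libraries too. Of the 8 macrophage and monocyte markers, all of them detected, 7 were higher in replicate 2, against 34.1% of all detected genes, and their sum was 1.18-fold higher there, with Lyz2 at 1429 and 1921 CPM, Adgre1 at 1357 and 1558 CPM, Csf1r at 943 and 1053 CPM and Mrc1 at 663 and 718 CPM. Macrophages also express the beta chains and Csf2ra. In replicate 1 each of the 8 stromal and endothelial markers was higher, 7 of them detected, against 65.9% of all detected genes, and their sum was 3.43-fold higher there, led by Col1a2 at 1040 and 291 CPM and Col1a1 at 807 and 189 CPM, while Cdh5 stayed under the minimum. The 8 eosinophil markers summed to 13164 and 13411 CPM, 1.02-fold apart. The part of these lists in the receptor values was not tested.

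**Figure D3:**
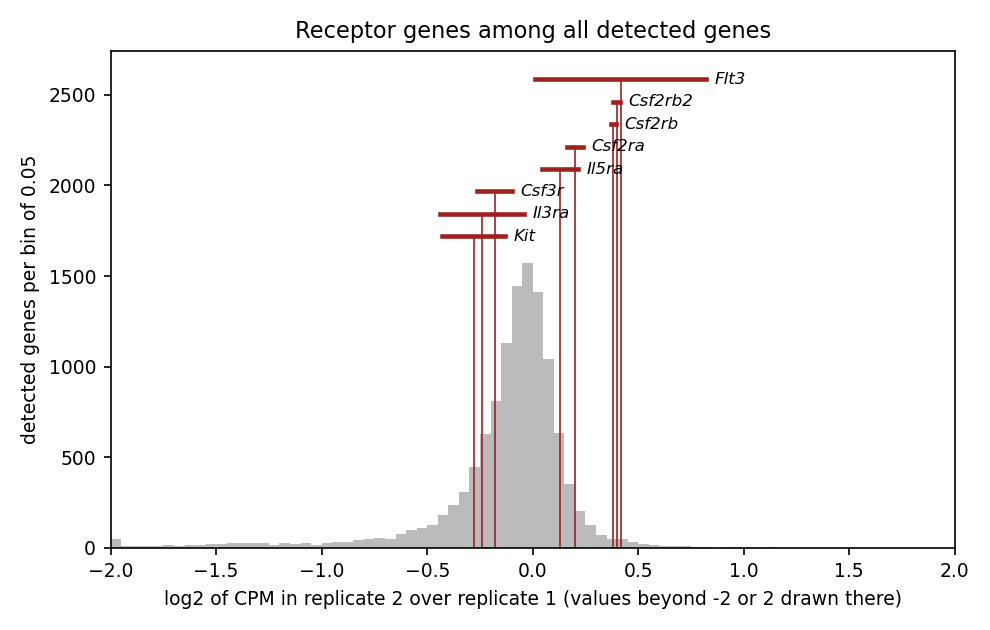
Log2 of CPM in replicate 2 over replicate 1 for the 11927 detected genes (grey histogram) and for each receptor gene (red lines; horizontal bars are exact 95% binomial intervals of counting error). Csf2rb, Csf2rb2, Csf2ra, Il5ra and Flt3 lie right of 0, and Kit, Il3ra and Csf3r lie left of 0.

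The ligands of the beta chain receptors and of Csf3r were at or near 0 counts. Il5 had 2 counts in replicate 1 and 0 in replicate 2, and Il3 had 0 counts in each. Of 8 ligand genes 3 were detected, against 47.5% of all genes. Csf1, which encodes macrophage colony-stimulating factor, stood at 949 and 1065 CPM. Flt3l stood at 34.9 and 40.9 CPM, and Kitl, which encodes stem cell factor, at 3.72 and 1.31 CPM. Il34, another ligand of Csf1r, stood at 1.39 and 0.263 CPM. The culture supplied IL-5 protein, so the RNA of Il5 says nothing of the dose the cells met.

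Signalling genes of cytokine and immune receptors, those of the beta chain among them, were detected throughout, against 47.5% of all genes. Of the beta chain path, Jak2 stood at 352.6 and 369.5 CPM, Stat5a at 41.7 and 41.6 CPM and Stat5b at 147 and 152 CPM. All 23 receptor-proximal genes reached the minimum, with a median of 183 and 170 CPM against 0.868 and 0.656 CPM over all genes. Syk, a tyrosine kinase of immune receptors, stood at 834 and 941 CPM, the adaptor gene Ywhaz at 633 and 659 CPM, Pik3cd, the leukocyte catalytic subunit of PI3 kinase, at 482 and 523 CPM, and Jak1 at 425 and 435 CPM. All 11 negative regulators were detected, with medians of 150.1 and 166 CPM. Ptpn6, the phosphatase SHP-1, stood at 619 and 682 CPM, Inpp5d, the lipid phosphatase SHIP1, at 384 and 416 CPM, Cish, a STAT5 target that dampens cytokine receptors, at 346 and 337 CPM, and the adaptor gene Dok2 at 315 and 335 CPM. In neither list was a gene over 2-fold apart between the libraries, against 3.45% of the detected genes.

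Other cytokine receptors were detected in part, and the counts here and below stand beside 47.5% of all genes detected. Of 30 class I and II receptors 22 reached the minimum, with medians of 11.4 and 9.06 CPM, beside medians of 68.3 and 66.7 CPM for the 8 receptor genes. Il4ra, the alpha chain for IL-4 and IL-13, stood at 191 and 191 CPM, and the interferon receptor genes Ifngr1 at 155 and 163, Ifnar2 at 149 and 149 and Ifngr2 at 148 and 147 CPM. Epor, the erythropoietin receptor, had 18 and 14 counts, under the minimum. Among 20 other growth factor receptor kinases 17 were detected, with Csf1r highest, Fgfr1 at 570.2 and 571 CPM, Tgfbr2 at 251 and 254 CPM and Igf1r at 234 and 213 CPM, while Tek had 0 counts and Flt4 4 and 0 counts. Of 8 receptors of type 2 inflammation 6 were detected, led by the inhibitory receptor gene Pirb at 1084 and 1175 CPM, the chemokine receptor gene Ccr3 at 822 and 960 CPM, Siglecf, and Il1rl1, the IL-33 receptor, at 403 and 430 CPM. Il17rb, with 25 and 15 counts, and Hrh4, with 19 and 18 counts, were not detected. All 7 regulator genes were detected, with Runx1 at 115 and 139 CPM in addition to those named above.

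**Figure D4:**
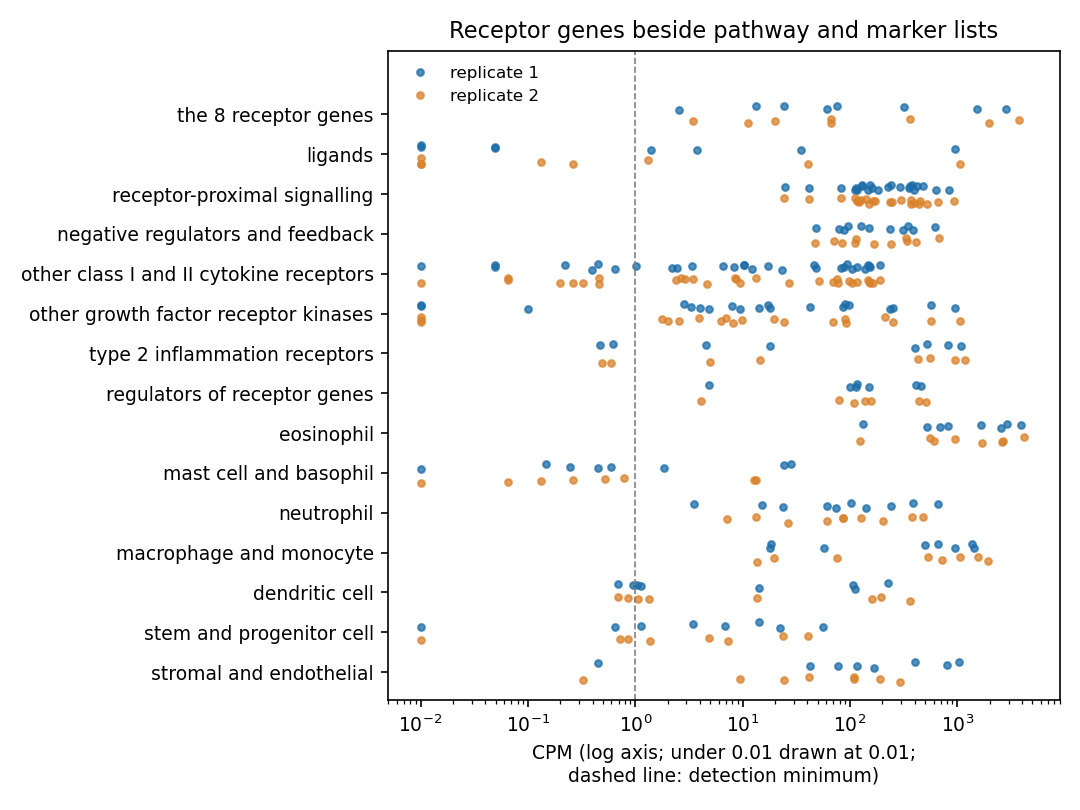
CPM of the 8 receptor genes and of each gene in the pathway and marker lists on a log axis, with values under 0.01 drawn at 0.01; each point is 1 gene in 1 library and the dashed line is the detection minimum. The receptor genes span 2.58 to 3723 CPM, while the signalling and negative regulator genes all lie right of the minimum.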

How the data were processed

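The authors deposited counts, 1 table of whole-number read counts per gene symbol for each of 2 RNA libraries. Per the labels' protocols the libraries came from a stranded kit for mRNA. The submitters' processing notes name STAR 2.5, featureCounts, Trim Galore 0.4.2, Picard and the mm9 build, without their roles. The strand setting and the handling of reads with several matches are not stated in the sources used.

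Counts were divided by the library total (40306679 and 30465490) to give CPM, and 3 counts equal 0.0744 and 0.0985 CPM. A gene with at least 1 CPM in both libraries counted as detected. Exact 95% Poisson intervals were taken per level and exact 95% Clopper-Pearson intervals per ratio. Transcript lengths were not used here, so ratios between genes are of counts; the planned length scaling was not run. The 13 peak lists of the series' samples were not used, since their build differs from that of the gene table. A further 8 files (2 count tables, 6 peak lists) belong to no sample given here and were not used, so no macrophage or neutrophil library is compared. TMM factors (edgeR 4.0.16) and size factors (DESeq2 1.42.0), both run under R 4.3.3, served as alternatives, and no count model was fitted. The rest was computed with scipy 1.17.1, pandas 2.3.3 and numpy 2.4.6 under Python 3.11.15, and the steps were tested on simulated data. Members, the 7 pathway and 7 marker lists and the motifs were chosen with earlier results of these data known. Named are all 8 receptor genes and, per list, the 4 genes highest in mean CPM plus up to 2 undetected genes in list order; others were named after their values were seen, and 1 gene that the rule names is not reported here. Csf1r, Mertk, Pdgfrb, Ccr3 and Siglecf each stand in a pathway list and in a marker list.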

Additional observations from a re-analysis of the deposited data

How the results depend on the processing

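Under TMM scaling and under DESeq2 size factors the mean CPM of each of the 8 receptor genes moved by less than its SD. Both scalings raise 1 library and lower the other, so a mean over 2 libraries hardly moves whatever the data. The ratio of replicate 2 to replicate 1 did move, for Csf2rb from 1.30 to 1.36 under TMM and 1.37 under DESeq2 size factors. With either replicate left out, a shift under the SD follows by construction for 2 libraries. Those values are the single-library levels given above. With Csf2rb alone as the beta chain the count ratios rose by construction, to 0.0198 for Il5ra, 0.105 for Csf2ra, 0.00382 for Il3ra, 0.129 for the 3 alpha chains together, 0.0220 for Csf3r, 0.00694 for Kit, 0.000914 for Flt3 and 0.306 for Csf1r. All 8 receptor genes were detected at a minimum of 0.5 CPM and 7 at 5 CPM. Restricting the background to the 14674 genes with at least 10 counts, 81.3% of them were detected, which leaves 8 of 8 closer to the rest. Scaling by exon or coding length and the peak alternatives were not run. No paired analysis was possible because a single group of RNA libraries entered and its replicates pair with nothing. Depth limits Flt3 most, with 104 and 105 counts.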

Other observations

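Some other receptor genes, named after their values were seen, lay further apart between the libraries than any of the 8 receptor genes. Of all detected genes 3.45% lay over 2-fold apart. Ghr, the growth hormone receptor, stood at 10.2 and 3.48 CPM and Osmr, the oncostatin M receptor, at 12.3 and 4.66 CPM. Both were over 2-fold higher in replicate 1, as were 3 of the 17 detected receptor kinases. Among these Pdgfra, a receptor of mesenchymal cells, stood at 17.2 and 7.06 CPM. Il7r, the alpha chain for IL-7, went the other way, at 48.0 and 69.6 CPM, above 99.4% of the detected genes in its ratio of replicate 2 to replicate 1. Kitl, whose product is the ligand of Kit, stood at 150 and 40 counts. The part of cell makeup in these differences was not tested.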
